A study of Mus musculus with 2 samples.

Results

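Small nucleolar RNA host genes were followed in MS1 cells, an endothelial line from mouse pancreatic islets. The genes were chosen by name: Snhg1, Snhg3, Snhg5, Snhg6, Snhg8, Snhg12 and Gas5. Of these 7, 6 were matched by Ensembl identifier among the 11405 genes with a value, and Snhg3 was not analysed here. Control cells were infected with a lentivirus whose short hairpin RNA targets LacZ, which is a bacterial gene, and were labelled wild type. The other cells received a hairpin to Pspc1 by the same kind of virus, which encodes an RNA-binding protein of paraspeckles, and were labelled as its knockdown. Both groups thus shared the infection and the cell line. The sources used here give neither the hairpin sequences nor the time after infection, and do not say whether the infected cells were selected or were a clone. Poly-A RNA of each group was sequenced as 1 library.

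A small nucleolar RNA (snoRNA) guides the chemical modification of ribosomal and other RNA. Box C/D snoRNAs guide 2′-O-methylation, and box H/ACA snoRNAs guide the change of uridine to pseudouridine. In mammals most of them lie in introns of a host gene and are trimmed out of the intron after splicing. Many host genes encode ribosomal proteins or translation factors, and others, such as the Snhg genes and Gas5, make a spliced RNA that is not known for a protein product. Several of these noncoding host RNAs are known to be removed by nonsense-mediated decay when they are translated, and some start with a run of pyrimidines like that of ribosomal protein mRNAs.

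The annotation (GENCODE M21, mouse build mm10) placed 25 snoRNA loci inside the 6 host genes on the same strand. Gas5, known from growth-arrested cells, held 9 of them and Snhg1 held 8. Of the 9 in Gas5, 1 bears a microRNA name, Mir5117, although the annotation types it as a snoRNA. Snhg12 held 4, Snhg5 held 2, and Snhg6 and Snhg8 held 1 each. The loci with a standard snoRNA name were of the box C/D kind in Gas5, Snhg1, Snhg5 and Snhg6, while Snhg8 held the box H/ACA snoRNA Snora24. Snhg12 held 3 of the H/ACA kind (Snora16a, Snora44 and Snora61) and Snord99. For 1 snoRNA of each host, the sequence from the annotation's transcripts is printed below to show what each host carries. Capitals mark the C box TGATGA and the D box CTGA of box C/D snoRNAs, or the H box ANANNA and the ACA near the 3′ end of box H/ACA snoRNAs.
Snora24 in Snhg8 (chr3:123507937-123508066, minus strand): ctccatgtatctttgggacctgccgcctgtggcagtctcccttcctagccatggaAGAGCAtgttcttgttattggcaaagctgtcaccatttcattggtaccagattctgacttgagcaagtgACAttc
Snora61 in Snhg12 (chr4:132310240-132310369, plus strand): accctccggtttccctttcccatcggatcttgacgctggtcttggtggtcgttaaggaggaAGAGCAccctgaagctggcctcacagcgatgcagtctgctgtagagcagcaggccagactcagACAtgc
Snord87 in Snhg6 (chr1:9942463-9942549, minus strand): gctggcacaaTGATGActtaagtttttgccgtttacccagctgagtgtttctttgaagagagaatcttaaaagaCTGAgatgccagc
Snord47 in Gas5 (chr1:161038082-161038158, plus strand): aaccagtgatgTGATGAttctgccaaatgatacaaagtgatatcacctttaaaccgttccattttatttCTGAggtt
Gm25855 in Snhg1 (chr19:8723993-8724064, plus strand): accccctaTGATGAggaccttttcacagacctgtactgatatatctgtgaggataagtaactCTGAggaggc
Snord50a in Snhg5 (chr9:88521529-88521600, minus strand): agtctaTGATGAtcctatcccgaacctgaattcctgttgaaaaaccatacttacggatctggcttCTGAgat

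These letters were searched on the snoRNA's own strand only. Over all annotated genes with a Snord name, 68 of 98 (69.4%) held TGATGA within the first 25 bases and CTGA within the last 15. Over all with a Snora name, 35 of 42 (83.3%) ended in ACA followed by 3 bases, and 39 of 42 (92.9%) held ANANNA centred in their middle part. Of the 25 loci, 24 lay wholly inside annotated exons of their host, since the annotation merges spliced forms with forms that keep an intron. Snord87 in Snhg6 was the exception. A gene-level value can therefore hold reads of the snoRNA or of the unspliced intron as well as reads of the spliced host. The snoRNA loci of the 6 hosts were not analysed here on their own.

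Each library held 53518762 or more reads on the listed genes, and the deposited values are reads divided by 1 factor per library. Pspc1 itself was at 28.8 in control cells and 3.78 in the knockdown. Of 14 endothelial markers 12 had a value, with sums of 9951 and 10419; Vwf and Cldn5 were not among them. By single gene 6 of the 12 had a log2 ratio above 0, while Cdh5 was at 859.4 and 511.2 and Kdr at 148.9 and 77.3, both picked after their values were seen. Of 6 fibroblast markers and of 6 smooth muscle and pericyte markers, 1 each was listed, Pdgfra and Pdgfrb, with a value under 3 in both libraries. The 1 listed islet or epithelial marker of 7, Krt18, was at 23.9 and 36.9. The 1 listed leukocyte marker of 5, the macrophage and lysosome gene Cd68, was at 103 and 124, and the pan-leukocyte gene Ptprc was not analysed here. Pairs of values below name the control first, and none comes with a replicate error.

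Snhg8 differed most among the host genes, and it was higher in the knockdown library. Its value was 62.2 with the LacZ hairpin and 141.1 with the Pspc1 hairpin, from 4058 and 7165 reads. This was 2.27-fold higher, or a log2 ratio of 1.18 with 0.5 added to each value, and the 95% counting interval was 1.13 to 1.24. The reads carry no molecular identifiers, so copies of 1 molecule cannot be told apart. Counting intervals (exact conditional binomial, without the added 0.5) cover counting error only, since each group had 1 library. They compare 2 libraries, not 2 conditions, and no difference here has a replicate check. In bulk RNA, fewer cells with a gene and less of its RNA per cell cannot be told apart. Snhg8 makes a short noncoding RNA on chromosome 3 (123507552 to 123508404, minus strand) with 853 bases of exons.

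A gene was called higher or lower when the mean of both values was at least 50 and the change at least 2-fold. By this rule 1 of 6 host genes, Snhg8, was called higher and 0 were called lower. Of all 3629 genes with such a mean, 20 (0.551%) were called higher and 34 (0.937%) lower. Only 3 of the host genes reached the mean of 50, so the count rests on 3 genes. Snhg8 ranked at place 12 of those 3629 by log2 ratio, Gas5 at place 829 and Snhg6 at place 1260.

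Gas5 and Snhg1, the hosts with the most snoRNA loci, were both higher in the knockdown library by less than 2-fold. Gas5 (chromosome 1, 161034422 to 161038539, plus strand) makes a noncoding RNA known to bind the glucocorticoid receptor. Its value was 55.5 with the LacZ hairpin and 66.5 with the Pspc1 hairpin, from 3619 and 3378 reads. The log2 ratio was 0.26, with a counting interval of 0.19 to 0.33, or 1.20-fold. Snhg1 (chromosome 19, 8723475 to 8726443, plus strand) is the host of a cluster of box C/D snoRNAs. It was at 36.7 and 48.7, from 2393 and 2472 reads, with a log2 ratio of 0.40 and an interval of 0.33 to 0.49. Both intervals lay above 0 and below the 2-fold line.

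Snhg6, Snhg12 and Snhg5 lay closer to an equal value in both libraries. Snhg6 (chromosome 1, 9941959 to 9944118, minus strand), the host of Snord87, was at 108.6 and 122.9 from 7090 and 6237 reads. Its log2 ratio was 0.18, with a counting interval of 0.13 to 0.23. Snhg12 (chromosome 4, 132308623 to 132311024, plus strand) was at 8.75 and 8.73, from 571 and 443 reads. Its interval ran from -0.19 to 0.18, so no difference was detectable at this depth, and its sign turned with the scaling of the libraries. Snhg5 (chromosome 9, 88521050 to 88522929, minus strand) carries the paired snoRNAs Snord50a and Snord50b. It was at 12.7 and 11.3, from 832 and 576 reads, with a log2 ratio of -0.16 and an interval of -0.32 to -0.01. Scaling by the median of ratios shifted every log2 ratio by 0.05, more than the distance of the Snhg5 interval from 0. By sign alone, 4 of 6 host genes had a log2 ratio above 0, against 45.2% of all 11405 genes. The median over the 6 was 0.22. Snhg5 and Snhg12, the hosts below 0, had means under 20, where 34.7% of all 5513 genes lay above 0. Of genes with a mean of at least 20, 55% did.

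**Figure D1:**
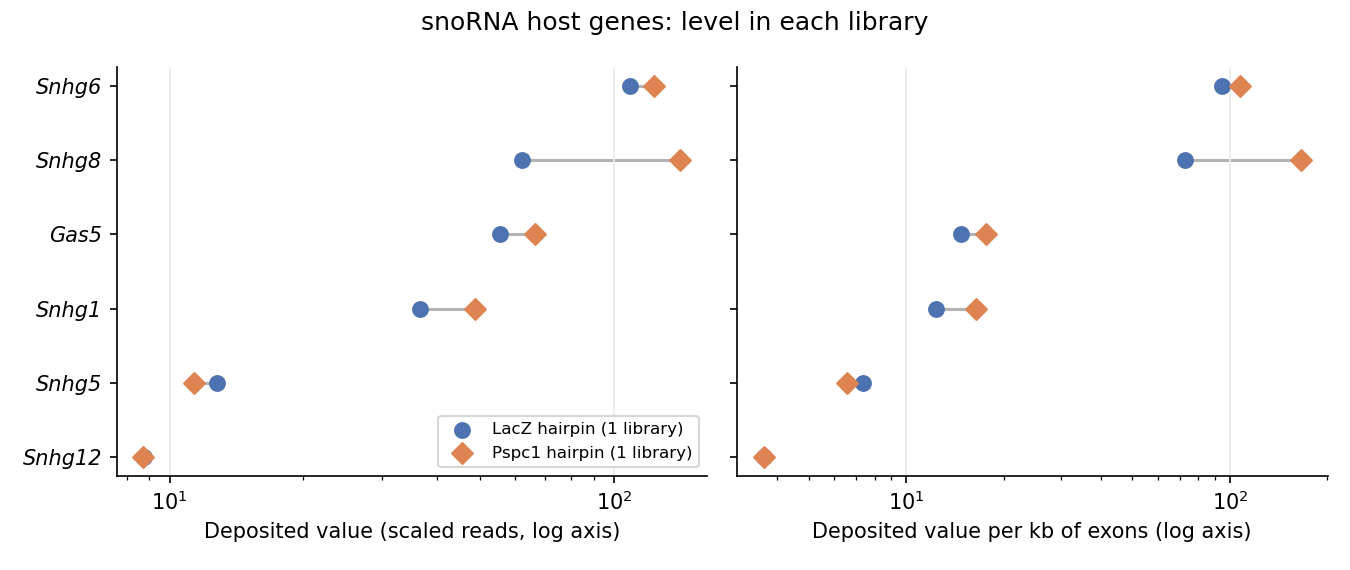
Level of each host gene in the LacZ hairpin library (circle) and the Pspc1 hairpin library (diamond), as the deposited value (left) and per kilobase of exons (right), both on log axes; a grey line joins the 2 libraries. Snhg8 moved from 62.2 to 141.1, while both symbols of Snhg12 lie on each other at 8.75 and 8.73.

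Levels of different genes were compared only per kilobase of exons. In the control library Snhg6 stood first with 94.8 per kilobase (95% exact Poisson interval 92.6 to 97.0, counting error only), and Snhg8 came next with 72.9 (70.7 to 75.2). In the knockdown library Snhg8 stood first with 165.5 (161.7 to 169.3) and Snhg6 second with 107.2 (104.6 to 109.9). Gas5 had a level of 14.7 per kilobase in control cells and 17.7 in the knockdown. Snhg1 had levels of 12.4 and 16.4 per kilobase, Snhg5 of 7.37 and 6.56, and Snhg12 of 3.64 and 3.63. The order of these last 4 was the same in both libraries, and neighbours in the order did not overlap in their counting intervals. The order was also the same with the length of the longest transcript. The merged exons of Snhg1, Snhg12 and Snhg8 fill their whole gene bodies and those of Gas5 most of it, so these lengths include introns. Those of Snhg6 leave out the intron with Snord87. The longest transcript of Snhg1, at 2728 bases, also spans most of its body, so levels per kilobase of spliced RNA were not measured. The spread between cultures is not known for any of these levels.

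Ratios in this comparison varied with gene length. Genes with a mean of at least 20 were split into 10 classes by exonic length, and the median log2 ratio was 0.18 in the shortest class, which held Snhg8 and Snhg6. It was 0.11 in the class of Snhg1 (2969 bases of exons) and 0.08 in the class of Gas5 (3760 bases). Both lengths include introns kept in some annotated forms. The spliced RNAs are shorter, and the values with length subtracted depend on this choice. With the class median subtracted, an alternative added after the data were seen, the log2 ratio of Snhg8 became 0.999, just under the 2-fold line, which ended its call. With a trend on length and GC content subtracted instead, Snhg8 had a log2 ratio of 1.18 and kept its call. Snhg6 came to -0.00040 by the class median and to 0.30 by the trend. Subtracting the trend moved the median of the 5892 genes at this level from 0.04 to 0.09. The part of gene length in the ratios was not tested.

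**Figure D2:**
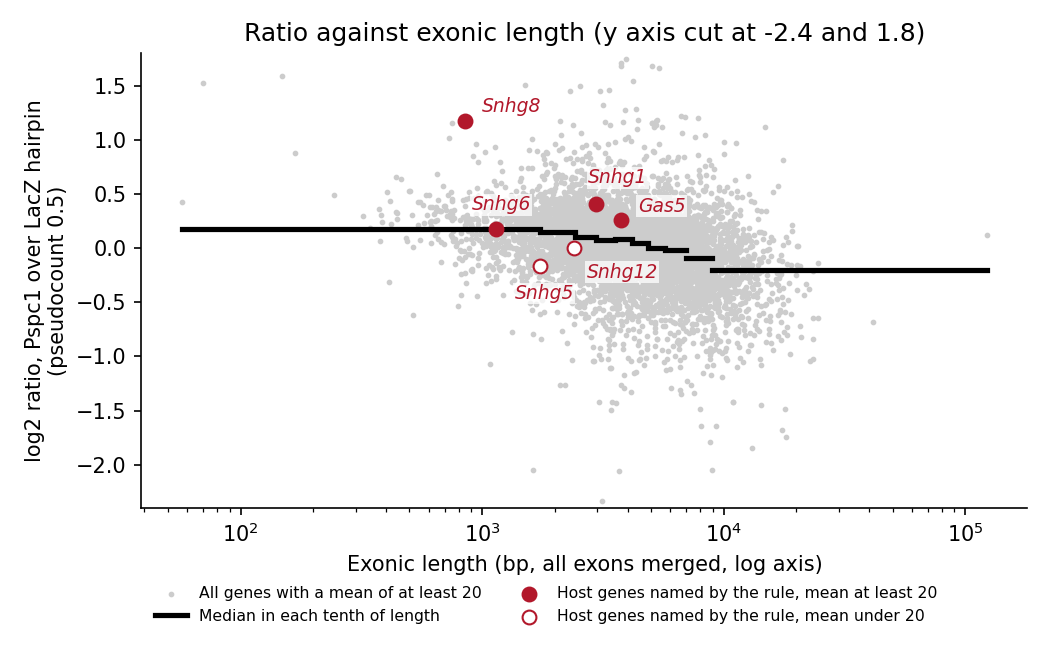
Log2 ratio of the Pspc1 over the LacZ hairpin library against exonic length on a log axis, for genes with a mean of at least 20 (grey) and the 6 host genes (red, open where the mean is under 20); black bars are the medians of the 10 length classes. Snhg8 lies at 1.18, far above the median of 0.18 in the shortest class, and Snhg6 lies on that median.

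Host genes of this kind often start with a C and a run of pyrimidines, the terminal oligopyrimidine (TOP) start known from mRNAs of the translation machinery. The bases around the annotated start are printed for the hosts analysed, because the comparison with TOP genes follows. RefSeq (GRCm38.p6) start windows matched 6 of the 7 names, all but Snhg6. Each window runs from 40 bases before the start to 20 after it. Capitals mark TATA at 40 to 21 bases before the start, and a C with at least 4 more pyrimidines (C or T) within 3 bases of the start.
Snhg8 (chr3:123508317-123508376, minus strand): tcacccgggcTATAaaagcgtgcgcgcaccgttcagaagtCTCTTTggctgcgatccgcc
Gas5 (chr1:161035126-161035185, plus strand): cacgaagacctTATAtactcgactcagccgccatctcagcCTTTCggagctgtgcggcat
Snhg12 (chr4:132308638-132308697, plus strand): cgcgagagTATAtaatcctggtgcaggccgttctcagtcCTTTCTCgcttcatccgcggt
Snhg1 (chr19:8723447-8723506, plus strand): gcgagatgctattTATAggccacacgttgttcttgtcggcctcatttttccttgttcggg
Snhg5 (chr9:88522878-88522937, minus strand): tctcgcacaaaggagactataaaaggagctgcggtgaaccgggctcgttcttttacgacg

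The motifs were searched on the gene's own strand. TATA was found in 4 of the 7 windows of these genes (57.1%), a number that includes Snhg3 and a further start of Gas5 that held neither motif. Over all 32851 windows 1755 (5.34%) held it there. The Snhg5 window holds a TATA that ends just past the near limit of this range, so it was neither marked nor counted. The pyrimidine run was found in 4 of the 7 windows, against 3792 (11.5%) of all windows. Snhg8, Gas5 (at the start printed) and Snhg12 had both motifs, and their log2 ratios were 1.18, 0.26 and -0.004. Which start Gas5 used was not measured, and a link between motif and ratio was not tested. A match describes the letters and is not a binding site or a measured start.

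The neighbours of the host genes within 10 kb were read beside them, because reads of overlapping genes cannot be told apart when strand is not stated. Slc3a2, the heavy chain of an amino acid transporter, starts 105 bases from Snhg1 on the other strand. It was at 301.6 and 406.1, with a log2 ratio of 0.43 (interval 0.40 to 0.46), and the interval of Snhg1 overlapped it. Wdr74, a ribosome biogenesis factor on the other side of Snhg1, was at 139.8 and 157.8, with a log2 ratio of 0.17. Its interval of 0.13 to 0.22 lay below that of Snhg1. Neither Slc3a2 nor Wdr74 shares exonic bases with Snhg1. Near Gas5, Zbtb37 was at 2.82 and 1.12. Zbtb37 overlaps the body of Gas5 but shares 0 exonic bases with it. Near Snhg12, Trnau1ap, a selenocysteine tRNA factor, was at 34.9 and 30.1.

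Around Snhg3, Rcc1, the nucleotide exchange factor of Ran, shares 135 exonic bases on the same strand and was at 102.9 and 114.2. Gm17300, which shares 705 exonic bases with Snhg3 on the other strand, was at 1.99 and 2.13. Phactr4, near the same locus, was at 9.33 and 6.82. Mcmdc2 shares 127 exonic bases with Snhg6 on the other strand and was not analysed here.

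The annotation held 12 further host genes of a noncoding type with a value, and 11 of them had a log2 ratio above 0. Of the 12, 7 had a mean under 20, where 34.7% of all 5513 genes lay above 0. With a mean of at least 20, 4 of 5 lay above 0, with a median of 0.21. Of all 5892 genes with such a mean, 55% did, with a median of 0.04. The exception in both counts was Cct6a, which encodes a protein, and the median of 0.21 includes it. None of the 12 met the rule for a call, for which 3 had the mean of 50. Snhg8, Snhg1, Gas5 and Snhg6, the 4 named hosts with a mean of at least 20, all lay above 0, with a median of 0.33.

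The 3 further hosts with a mean of at least 50 were 2410006H16Rik, 1110038B12Rik and Cct6a. 2410006H16Rik, whose body holds Snord49a, was at 52.4 and 81.6, with a log2 ratio of 0.63. 1110038B12Rik was at 117.5 and 143.0 (log2 ratio 0.28). Cct6a, which encodes a chaperonin subunit although the annotation lists its locus as a processed transcript, was at 382.6 and 353.2 (log2 ratio -0.12). Zfas1, a host of box C/D snoRNAs, was at 32.9 and 38.0, and Snhg15 was at 31.6 and 34.2.

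The hosts with low values included the 3 highest ratios of the list. Snhg10 was at 4.32 and 12.7, Rab26os at 7.62 and 22.3, and AA465934 at 2.22 and 6.26, with log2 ratios of 1.45, 1.49 and 1.31. AC121821.1 was at 7.69 and 15.1, and Dancr, a noncoding RNA named for its effect on differentiation, was at 14.5 and 24.6. 1810032O08Rik was at 10.7 and 12.6 and 2700038G22Rik at 9.72 and 11.7. Thus 3 of 7 further hosts with a mean under 20 were at least 2-fold higher with 0.5 added to each value, and of all 5513 genes with such a mean 99 (1.8%) were. Rab26os is antisense to a coding gene, so its reads may be shared with that gene.

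**Figure D3:**
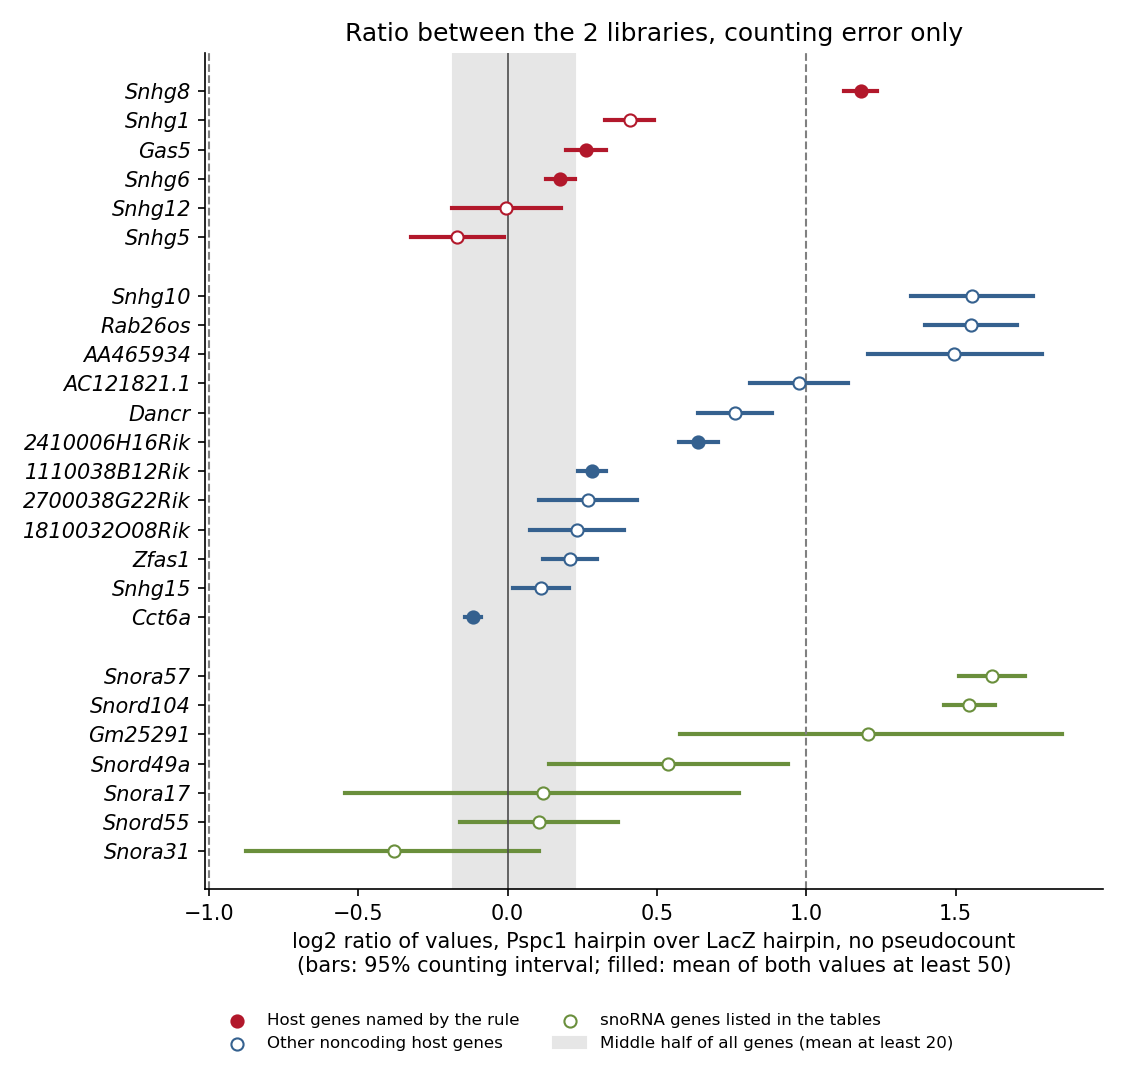
Log2 ratio of the Pspc1 over the LacZ hairpin library with its 95% counting interval for the host genes named by the rule (red), the further noncoding hosts (blue) and the snoRNA genes with a value (green); symbols are filled where the mean of both values is at least 50, dashed lines mark 2-fold, and the grey band runs from the 25th to the 75th percentile of genes whose mean is at least 20. Snhg8 is the only filled symbol beyond a dashed line.

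In all, 7 snoRNA genes had values of their own. Both with a mean of at least 20, Snord104 and Snora57, were over 2-fold higher with the Pspc1 hairpin, as were 50 (0.849%) of all 5892 genes at that level. Snord104 was at 24.4 and 71.4 (log2 ratio 1.53), and Snora57 was at 14.5 and 44.6 (log2 ratio 1.59). The other 5, Snord49a, Snora17, Snora31, Snord55 and Gm25291, had means under 5, and Snora31 was the one with a log2 ratio below 0. Mature snoRNAs carry no poly-A tail, so a poly-A library is not made to measure them. Snord104 and Snora57 lie in none of the named hosts. The part of snoRNA reads in the value of Snhg8, whose exons hold Snora24, was not tested, nor was it for the other hosts.

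**Figure D4:**
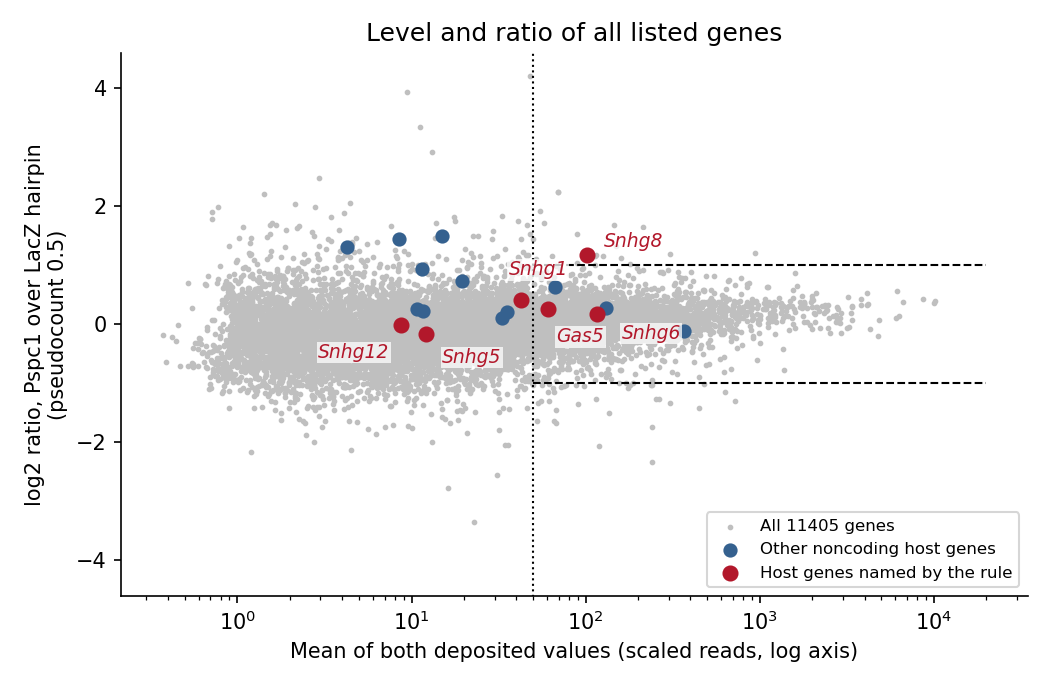
Log2 ratio of the Pspc1 over the LacZ hairpin library against the mean of both deposited values (log axis) for all 11405 genes (grey), the 6 host genes named by the rule (red) and the 12 further noncoding hosts (blue); the dotted line is the mean of 50 and the dashed lines are the 2-fold limits. Snhg8 lies above the upper limit, and 3 blue points with log2 ratios of 1.31 to 1.49 lie left of the dotted line.

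Protein-coding host genes were described by the same counts. Of 54 with a mean of at least 20, 38 lay above 0, with a median log2 ratio of 0.15, and none met the rule for a call, for which 43 had the mean. The 24 that encode ribosomal proteins all lay above 0, with a median of 0.30, while of the other 30 only 14 did, with a median of -0.03. Among the latter, Eef2, the elongation factor of translocation, was at 7393 and 10011, and Rack1, a protein of the small ribosomal subunit, was at 3242 and 4341. At the other end Snx5, a sorting nexin, was at 73.3 and 53.4, and Eif4a2, an RNA helicase of translation initiation, was at 54.7 and 45.5. Ncl, which encodes nucleolin, was at 42.0 and 20.5, and Wdr43, a factor of ribosome assembly, at 31.4 and 15.2; both were picked after their values were seen.

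Ribosomal protein genes had like ratios whether or not they host a snoRNA. Of 77 with a mean of at least 20, 76 lay above 0, with a median of 0.31. All 77 also had a mean of at least 100. Over all genes the median rose with level, from 0.04 at a mean of at least 20 to 0.11 at a mean of at least 100. Of the 2097 genes at the latter level, 65.0% lay above 0. The 53 without a named snoRNA had a median of 0.32, against 0.30 for the 24 hosts, and the difference was not tested. Rpsa was at 4936 and 7343 and Rps12 at 1242 and 1868, the highest ratios of the list, and Rps25 was at 883.2 and 864.3, the only one below 0. Of 17 other TOP genes of translation, 11 lay above 0, with a median of 0.13. Eef1g was at 2711 and 3738, while Npm1, the nucleolar histone chaperone nucleophosmin, was at 171.1 and 109.2, and Nap1l1, another histone chaperone, at 73.9 and 46.0. Snhg6 (0.18) thus lay below the ribosomal protein median of 0.31, and Snhg1 (0.40) and Snhg8 (1.18) above it. Gas5 (0.26) was lower too, but its counting interval of 0.19 to 0.33 held that median. With the length and GC trend subtracted that median was 0.27, and Gas5 (0.46) and Snhg6 (0.30) then lay above it too. The 5892 genes that reach a mean of 20 then had a median of 0.09.

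**Figure D5:**
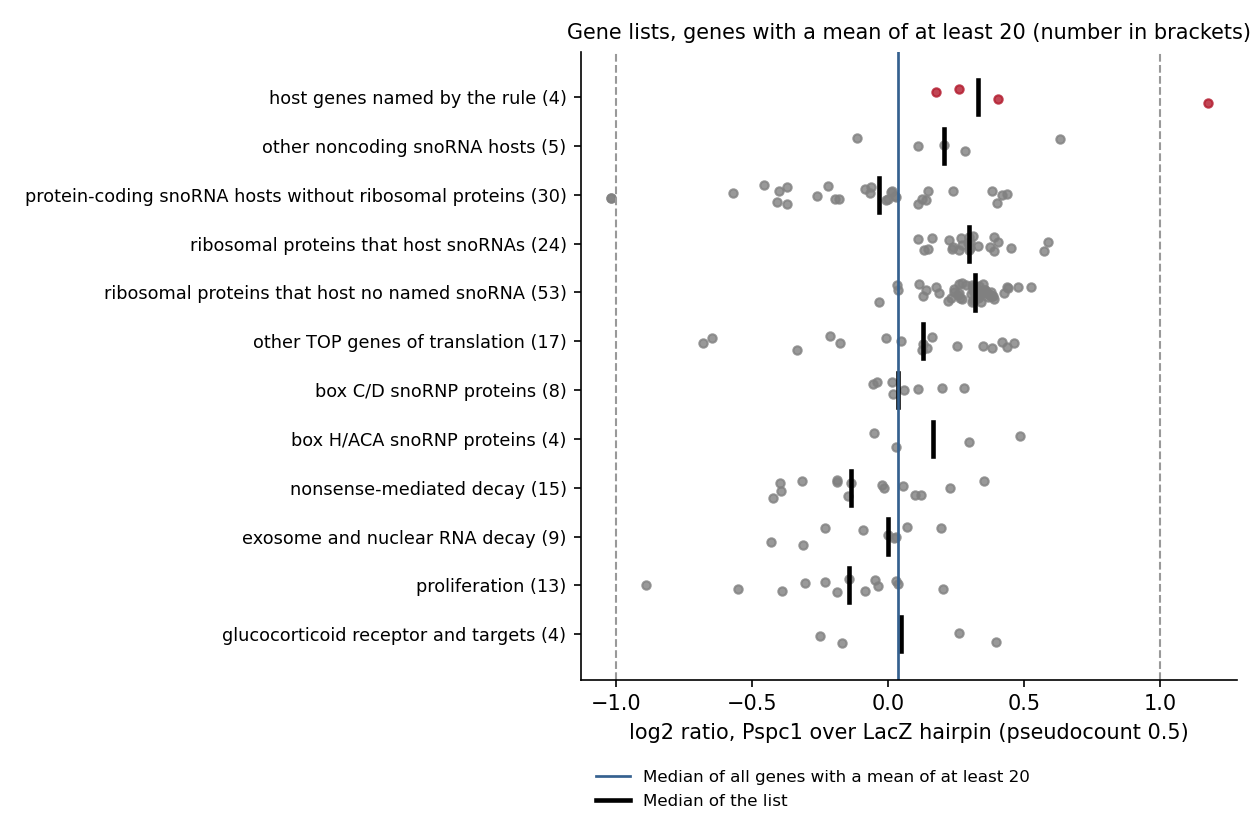
Log2 ratio of the Pspc1 over the LacZ hairpin library for each gene with a mean of at least 20 in the lists described, with the number of genes in brackets; black bars are list medians, the blue line is the median over all genes at that level (0.04), and dashed lines mark 2-fold. The named hosts (red, median 0.33) and the ribosomal proteins (medians 0.30 and 0.32) lie right of the blue line, and the coding hosts that are no ribosomal proteins spread to both sides of it.

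The proteins that build snoRNA particles were read next. Of 8 box C/D core and assembly genes with a mean of at least 20, 6 lay above 0, with a median of 0.04, as over all genes. Snu13, a core protein that binds the box C/D motif, was at 238.9 and 274.4, and Ruvbl1, an assembly ATPase, was at 151.9 and 146.4. Of 4 box H/ACA genes 3 lay above 0, with a median of 0.16. It ran from -0.011 (6 genes) to 0.39 (2 genes) with other minimum means. Nop10 was at 110.4 and 154.8 and Nhp2 at 418.0 and 514.6, both core proteins of the H/ACA particle, and Gar1 was at 83.7 and 80.7. No gene was called among the 7 C/D and 3 H/ACA genes with a mean of at least 50.

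Genes of the pathways that turn over host RNAs were described by the same counts. Of 15 nonsense-mediated decay and exon junction genes 5 lay above 0, with a median of -0.14. That median was 0.00046 with the length and GC trend subtracted and -0.015 with a minimum mean of 100. Both lay below the medians over every gene under these settings, which were 0.09 with the trend subtracted and 0.11 with the higher minimum. Smg5, which acts in dephosphorylation of the decay factor UPF1, was at 126.9 and 96.3, and Eif4a3, the helicase of the exon junction complex, was at 190.4 and 222.9. Of 9 exosome and nuclear decay genes 5 lay above 0, with a median of 0.001; Exosc2 was at 84.1 and 96.3. No gene was called, but only 7 decay and 3 exosome genes had the mean of 50.

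Gas5 is known for its link to growth arrest and to the glucocorticoid receptor, so both sets were read beside it. Of 13 proliferation genes 3 lay above 0, with a median of -0.14. Mcm7, a subunit of the replicative helicase, was at 581.1 and 313.4, and the cyclin gene Ccna2 at 121.4 and 92.5, while Mcm5, another helicase subunit, was at 731.1 and 840.6. Of 4 genes for the glucocorticoid receptor and its targets 2 lay above 0, with a median of 0.05. Dusp1, a phosphatase induced by glucocorticoids, was at 319.6 and 269.0, and Sgk1, a kinase induced by them, at 99.2 and 118.9. No gene was called among the 11 proliferation and 2 glucocorticoid genes with a mean of at least 50.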

How the data were processed

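Poly-A RNA of MS1 cells was sequenced in 2 libraries, 1 per hairpin, grouped by the label of the hairpin. The submitters' processing notes name DESeq 1.39.0, featureCounts 2.0.0, HISAT2 2.1.0, Trimmomatic 0.39 and build mm10, without role or order. The library strand and the annotation behind the counting are not given in the sources used here. For each gene the authors deposited 1 signal value, and each value was a whole multiple of 1 step per library within 0.01 reads (100% of values). The steps were 0.0153 and 0.0197, which gives 64009912 and 53518762 reads on these genes in control and knockdown.

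The log2 ratio was log2((knockdown + 0.5)/(control + 0.5)), which understates the change of low genes. No p-value was computed, since each group had 1 library. Counting intervals came from the whole reads. The host genes and the 10 gene lists were chosen with earlier results of these data known. Lists entered with genes of a mean of at least 20. Genes named were the hosts, the further noncoding hosts, the neighbours within 10 kb, and the 2 highest and 2 lowest ratios with a mean of at least 50 in each list, of which examples are printed. A gene that this rule would name is not reported here. Snhg17, Snhg20 and the snoRNA genes were picked after their values were seen.

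Symbols, exons and coordinates came from GENCODE M21. The steps were tested on simulated counts. Other scalings, pseudocounts, minimum means, a 1.5-fold rule and a length and GC correction were tried. Python 3.11.15, numpy 2.4.6, pandas 2.3.3, scipy 1.17.1 and matplotlib 3.10.9 were used.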

Additional observations from a re-analysis of the deposited data

How the results depend on the processing

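No paired analysis was possible because each group had 1 library, and for the same reason no library could be left out. Of 169 values recomputed, 138 stayed within the tolerance of their kind and 31 did not. The tolerance was the counting interval for a ratio, 1.5 times for a count of genes, an equal number for ranks, and, for a list median, 0.5 of the interquartile range or of the median counting interval, whichever was wider. Scaling by total reads shifted every log2 ratio by -0.10, the trimmed mean of M values by 0.04 and the median of ratios by 0.05. With total reads Gas5 came to 0.16, Snhg1 to 0.30, Snhg6 to 0.073 and Snhg8 to 1.07. With a length and GC trend subtracted Gas5 came to 0.46, Snhg1 to 0.65 and Snhg6 to 0.30, while Snhg8 stayed at 1.18 and its call held. With the median of the length class subtracted (added after the data were seen) Gas5 came to 0.18, Snhg1 to 0.30, Snhg5 to -0.34, Snhg6 to -0.00040 and Snhg8 to 0.999, and the number of hosts called higher fell to 0. A pseudocount of 5 gave 1.12 for Snhg8. The number of all genes called higher was 12 with a minimum mean of 100, 50 with 20 and 123 with a 1.5-fold rule. The number called lower was 16, 71 and 141 under these settings and 21 with the length and GC trend subtracted. The median over the named hosts was 0.56 with that trend subtracted and 0.68 with a minimum of 100. Under these settings the median over every gene was 0.09 and 0.11. For the further noncoding hosts, Cct6a included, the median was 0.10 with total reads and 0.084 with a minimum of 100 (2 genes). For ribosomal proteins it was 0.21 with total reads. The C/D list came to -0.066 with total reads and -0.041 with a minimum mean of 5. The H/ACA list came to 0.39 with a minimum of 100 (2 genes) and -0.011 with 5, and the exosome list to -0.16 with 5. The exosome list had no gene left at a minimum of 100. Depth limits Snhg12 and Snhg5, with 571 and 832 reads in the control library, more than Snhg6 with 7090.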

Other observations

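Snhg17 and Snhg20 bear host gene names, but no snoRNA of a standard name lies in their bodies in the annotation; both were picked after their values were seen. Snhg20 was at 24.5 with the LacZ hairpin and 44.2 with the Pspc1 hairpin, with a log2 ratio of 0.83 and a counting interval of 0.75 to 0.94. Snhg17 was at 37.9 and 36.3, with a log2 ratio of -0.06 and an interval of -0.15 to 0.03. The interval of Snhg20 lay above 0, and that of Snhg17 held 0.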
